A study of Mus musculus with 2 samples.

Results

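Postsynaptic scaffolds and synaptic organizers are described here as 48 mouse genes, chosen by name from known families of the excitatory postsynaptic density and of synaptic adhesion, out of 43346 listed genes. All 48 were found in the tables. They held 0.440% of the gene counts in replicate 1 and 0.404% in replicate 2. The RNA came from forebrain of B6NCrl mouse embryos at 16.5 days of gestation, with male and female embryos pooled and no treatment or mutation named. Replicate 1 and replicate 2 are biological replicates of this 1 group, each treated here as a separate pool. For replicate 2, 41 embryos were pooled, and no number of embryos was found for replicate 1. Libraries were made from 10 ng of total RNA longer than 200 nt, with spike-in RNA added. The gene totals were 31211128 counts for replicate 1 and 26957198 for replicate 2. With 1 group there was no condition to test, so each level is a mean ± SD of both libraries (n = 2) and pools are compared as replicate 1 over replicate 2.

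At an excitatory synapse, membrane-associated guanylate kinases such as PSD-95 hold glutamate receptors under the membrane, Dlgap proteins link them to Shank, and Shank together with Homer reaches the actin cytoskeleton and metabotropic receptors. Calcium entering through the receptors binds calmodulin, which switches on CaMKII and the phosphatase calcineurin. Organizers are adhesion molecules that meet across the cleft, with presynaptic neurexins and receptor phosphatases on one side and neuroligins, Lrrtm and Slitrk proteins on the other, and they start and align synapses. In rodent forebrain most of these synapses form after birth. In bulk tissue, fewer cells of a type and less RNA per cell cannot be told apart.

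All 48 genes reached at least 1 TPM (the deposited level, corrected for transcript length and library size) in both libraries, and 39 reached 10 TPM in both, or 31 on complete coding transcripts alone (those with both ends of the coding region annotated). Among 21474 protein-coding genes, 60.7% reached 1 TPM and 40.9% reached 10 TPM in both. The median of the 48 means was 20.4 TPM, against 21.9 TPM over the 13038 protein-coding genes at 1 TPM or more. Dlgap4, Ptprs, Camk2b, Ppp3ca and Ptprd exceeded 100 TPM in both libraries and together made up 45.8% of the summed TPM of the set in replicate 1 and 48.3% in replicate 2. Il1rapl1, an interleukin-1 receptor-like partner of presynaptic Ptprd, was lowest with 3.35 TPM in replicate 1 and 2.15 in replicate 2. Within 12 families, 29 pairs of genes next to each other in level were compared. A pair was taken as apart when both libraries gave the same order and the mean log2 gap exceeded 3 SD, which 20 pairs met.

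**Figure D1:**
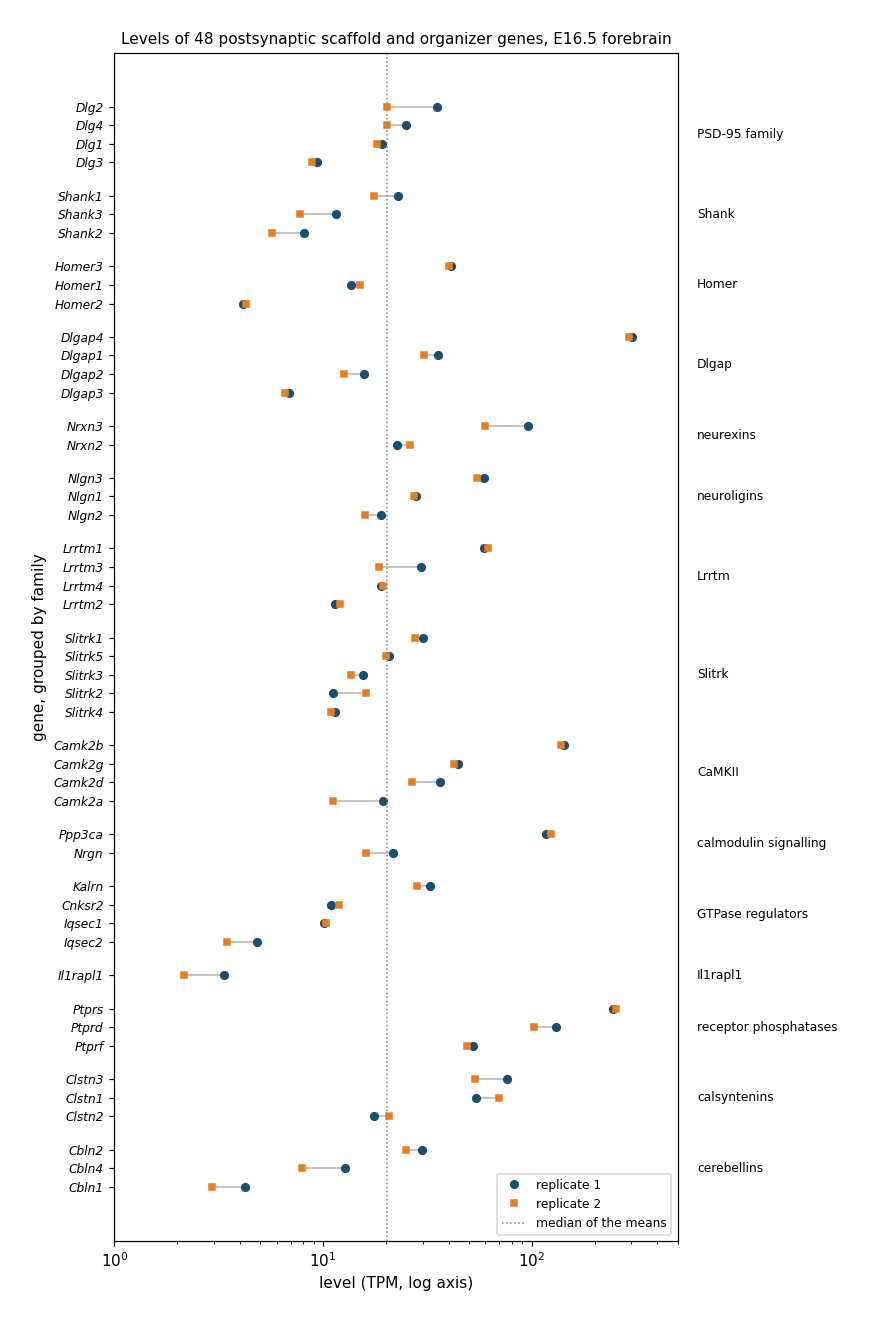
Level of each of the 48 genes in TPM on a log axis, grouped by family and ordered by mean within it, with a circle for replicate 1 and a square for replicate 2. The highest gene, Dlgap4, averaged 297 TPM and the lowest, Il1rapl1, 2.75 TPM, and the dotted line marks the median of 20.4 TPM.

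The PSD-95 family had no single leading gene. Dlg2 (PSD-93) had 35.0 TPM in replicate 1 and 20.2 in replicate 2. Dlg4 (PSD-95), the main scaffold of mature excitatory synapses, had 24.9 and 20.4 TPM in replicates 1 and 2. The order of Dlg2 and Dlg4, and that of Dlg4 and Dlg1, was within the spread between the libraries. Dlg1 (SAP97), which also carries receptors along the secretory route, averaged 18.6 ± 0.665 TPM and stood apart from Dlg3 (SAP102) at 9.11 ± 0.318 TPM. Dlg3 is known as the family member of young synapses, and in these pools it was the lowest with 11.8 ± 1.81% of the family's TPM.

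Dlg1 and Dlg2 each showed a pair of alternative exons at the same place in the message, in the stretch between the SH3 and guanylate kinase domains. In the annotation, every complete coding transcript with any TPM that spans this place holds 1 exon of the pair. The shares of the pair on these transcripts therefore sum to 100% whatever the reads, and only the split between the exons was measured. All 4 exons leave a remainder of 1 base when divided by 3, so either exon of a pair keeps the same reading frame. In Dlg1 (GRCm38, plus strand) the 34-base exon at chr16:31847636-31847669 was in 84.96% of complete coding TPM in replicate 1 and 87.6% in replicate 2, and the 100-base exon at chr16:31846834-31846933 in 15.04% and 12.4%. In Dlg2 (plus strand) the 46-base exon at chr7:92418088-92418133 was in 63.4% in replicate 1 and 56.7% in replicate 2, and the 100-base exon at chr7:92417224-92417323 in 36.6% and 43.3%. Over all transcripts that span the place, noncoding ones included, the 46-base exon of Dlg2 was in 83.7% in replicate 1 and 77.9% in replicate 2 and its 100-base exon in 16.3% and 22.1%. On the same measure the 34-base exon of Dlg1 was in 82.3% in replicate 1 and 81.5% in replicate 2. Its 100-base exon was in 11.6% and 9.54%. The shorter exon led in both genes and both libraries. The sequences below show the exchange, with the exon in capitals and the 12 transcript bases on each side in lower case, read from the most abundant complete coding transcript with that exon in GENCODE M21. The Dlg2 transcript with the 100-base exon carries a further exon directly after it, so the flanks that follow differ between the Dlg2 sequences, whereas those of Dlg1 are the same. The 100-base exons of the 2 genes share a run of 25 identical bases, whereas the shorter exons share a run of 7 at most.
Dlg1 34-base exon: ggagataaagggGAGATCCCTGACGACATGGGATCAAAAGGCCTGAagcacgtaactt
Dlg1 100-base exon: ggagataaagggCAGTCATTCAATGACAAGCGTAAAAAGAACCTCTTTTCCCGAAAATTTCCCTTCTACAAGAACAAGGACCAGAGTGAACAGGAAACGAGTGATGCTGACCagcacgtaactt
Dlg2 46-base exon: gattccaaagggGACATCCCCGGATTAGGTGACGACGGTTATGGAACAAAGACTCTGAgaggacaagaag
Dlg2 100-base exon: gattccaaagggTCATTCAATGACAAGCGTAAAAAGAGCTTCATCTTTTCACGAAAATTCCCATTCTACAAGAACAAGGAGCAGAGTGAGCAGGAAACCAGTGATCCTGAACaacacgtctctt

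The Shank genes, which encode the master scaffold below the PSD-95 layer, were led by Shank1. Shank1 had 23.0 TPM in replicate 1 and 17.6 in replicate 2, and its share of the family was 55.3 ± 1.95%. Shank3, the gene deleted in Phelan-McDermid syndrome in humans, had 11.48 and 7.78 TPM in replicates 1 and 2, and Shank2 had 8.11 and 5.68 TPM. Both steps of this order were apart. However, 80.4% of the Shank3 TPM in replicate 1 and 77.4% in replicate 2 was assigned to Shank3-207, a transcript of 719 bases with an incomplete coding region. Counting complete coding transcripts alone left Shank3 with 1.62 ± 0.481 TPM, put Shank2 above it and raised Shank1 to 71.8 ± 1.26% of the family. The Shank2 exon of 21 bases was included at 88.1% in replicate 1 and 80.9% in replicate 2.

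Among the Homer genes, adaptors that join Shank to metabotropic glutamate receptors, Homer3 was highest. It had 41.0 TPM in replicate 1 and 40.0 in replicate 2, or 68.7 ± 1.66% of the family. Homer1 had 13.6 and 15.02 TPM and Homer2 4.12 and 4.25 TPM in replicates 1 and 2, so that all 3 genes were apart and differed little between the pools. Homer3 overlaps Ddx49 on the opposite strand, which had 44.7 TPM in replicate 1 and 48.7 in replicate 2. The sources used here do not state whether counting used strand, so reads in that overlap may belong to either gene. Homer1 makes long forms with a coiled coil, which cross-link partners, and the short Homer1a, which is induced by activity and uncouples them. Long forms held 78.7% of Homer1 TPM in replicate 1 and 76.5% in replicate 2. Homer1-204, whose 558 coding bases have the length of Homer1a, held 6.78% and 8.20%.

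Dlgap4 dominated the Dlgap (GKAP/SAPAP) linkers with 302 TPM in replicate 1 and 292 in replicate 2. Dlgap1 followed with 35.5 and 30.5 TPM, Dlgap2 with 15.7 and 12.6 TPM and Dlgap3 with 6.88 and 6.55 TPM in replicates 1 and 2. All 3 steps were apart. On complete coding transcripts alone, however, Dlgap2 was below Dlgap3. There Dlgap2 had 5.90 TPM in replicate 1 and 4.01 in replicate 2, and Dlgap3 had 6.87 and 6.55 TPM. Over all transcripts, Dlgap4 held 84.7 ± 1.14% of the family. Most of its TPM came from short transcripts. Complete forms under 1500 coding bases held 58.4% in replicate 1 and 61.5% in replicate 2, while forms over 2500 coding bases held 3.06% and 2.67%, which is 8.52 ± 1.02 TPM.

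Camk2b, the beta subunit of CaMKII, was the main kinase subunit message. It had 142 TPM in replicate 1 and 138 in replicate 2, or 61.0 ± 3.36% of the 4 CaMKII genes. Camk2g had 44.5 and 42.2 TPM and Camk2d 36.5 and 26.6 TPM, and these 2 genes were not apart. Camk2a, the subunit that dominates the adult forebrain, was lowest with 19.5 TPM in replicate 1 and 11.2 in replicate 2, or 6.57 ± 2.05% of the family, and it was apart from Camk2d. The beta to alpha order held in both libraries.

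CaMKII subunits differ in the linker between the kinase and the hub domain, where alternative exons of the beta gene include an actin-binding segment. Camk2b-209, the leading form, held 61.3% of the gene in replicate 1 and 54.2% in replicate 2. It carries a 75-base exon at chr11:5987057-5987131 (minus strand), after 946 of its 1626 coding bases, that was included at 65.3% in replicate 1 and 64.3% in replicate 2. A 45-base exon at chr11:5981070-5981114, after 1131 coding bases, was included at 82.6% and 77.3%. In Camk2d (plus strand) a 60-base exon at chr3:126805857-126805916 was included at 39.3% in replicate 1 and 31.1% in replicate 2. Those shares are over all spanning transcripts, and on complete coding ones alone they were 49.6% and 33.5%. In Camk2g (minus strand) the 69-base exon was included at 22.1% and 19.9% and the 33-base exon at 16.3% and 11.95%, so most Camk2g message lacked both. The linker exons of Camk2b and Camk2d are shown because they set the form of subunit that the embryonic messages encode, with the exon in capitals.
Camk2b 75-base exon: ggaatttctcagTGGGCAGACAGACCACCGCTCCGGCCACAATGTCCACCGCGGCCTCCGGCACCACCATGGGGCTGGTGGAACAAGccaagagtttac
Camk2b 45-base exon: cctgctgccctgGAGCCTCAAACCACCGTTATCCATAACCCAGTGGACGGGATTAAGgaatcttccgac
Camk2d 60-base exon: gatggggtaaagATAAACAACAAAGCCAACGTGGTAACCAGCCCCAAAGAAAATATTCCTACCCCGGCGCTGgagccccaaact

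Ppp3ca, the alpha catalytic subunit of calcineurin, had 117 TPM in replicate 1 and 123 in replicate 2. Its coding forms differed by a 30-base exon at chr3:136932011-136932040 (plus strand), included at 59.1% in replicate 1 and 59.7% in replicate 2, the smallest difference but 1 among the 21 exons by SD (0.386 percentage points). Nrgn (neurogranin), which holds calmodulin in dendrites, had 21.6 TPM in replicate 1 and 16.1 in replicate 2. The 30-base exon is given with its flanks.
Ppp3ca 30-base exon: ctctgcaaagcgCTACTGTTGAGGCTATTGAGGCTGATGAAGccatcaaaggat

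The regulators of small GTPases in spines were led by Kalrn, an exchange factor for Rac, with 32.5 TPM in replicate 1 and 28.2 in replicate 2. Cnksr2, a scaffold of Ras signalling, had 10.9 and 11.9 TPM in replicates 1 and 2, and the Arf exchange factors Iqsec1 and Iqsec2 averaged 10.2 ± 0.134 and 4.15 ± 0.976 TPM. Kalrn was spread over many forms. Transcripts of over 6000 coding bases held 8.81% of its TPM in replicate 1 and 7.77% in replicate 2. Nearly all of that was on Kalrn-217, whose coding region is incomplete, at 8.04% and 7.76%. Complete forms of 3000 to 6000 coding bases held 39.9% and 39.5% of Kalrn TPM in replicates 1 and 2. Its 93-base exon had the largest spread of the exons measured, with 83.5% inclusion in replicate 1 and 64.2% in replicate 2.

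Of the presynaptic neurexins, Nrxn3 had 95.6 TPM in replicate 1 and 59.5 in replicate 2, and Nrxn2 had 22.5 and 26.0 TPM. The gap between them varied too much between the pools to count as apart. Neurexin genes make long alpha forms and short beta forms from a promoter inside the gene. Complete alpha forms of Nrxn3 had 20.99 TPM in replicate 1 and 16.1 in replicate 2, against 9.13 and 5.40 TPM for its complete beta forms. For Nrxn2 the complete alpha forms had 3.74 and 2.88 TPM and the beta forms 3.88 and 3.73 TPM, so Nrxn2 showed no such excess of alpha over beta.

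The 90-base exon of Nrxn3 at chr12:90199147-90199236 (plus strand) is splice site 4, which sets partner choice. Neurexins with it bind cerebellins, and those without it bind Lrrtm proteins. It was included at 74.1% in replicate 1 and 82.9% in replicate 2, or 78.5 ± 6.24%. Neuroligins are spliced at site A in their extracellular domain. Nlgn1 included its 60-base exon at chr3:25920178-25920237 (minus strand) at 54.4% in replicate 1 and 53.5% in replicate 2. Nlgn3 included a 60-base exon at chrX:101303072-101303131 (plus strand) at 11.9% and 8.83%. On complete coding transcripts alone the Nlgn3 exon was included at 17.6% in replicate 1 and 12.5% in replicate 2. The neuroligin exons follow similar flanks but are different inserts, with 16 of 60 bases identical by position, and the bases after them differ. No other insert of Nlgn3 was measured. Its share is therefore not that of all Nlgn3 message with an insert at site A, and was not compared with that of Nlgn1. These exons are printed because they lie in the domains that meet across the cleft, and capitals mark the exon.
Nrxn3 90-base exon: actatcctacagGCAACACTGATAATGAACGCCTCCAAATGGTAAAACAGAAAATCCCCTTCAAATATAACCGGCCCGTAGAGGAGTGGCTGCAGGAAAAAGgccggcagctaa
Nlgn1 60-base exon: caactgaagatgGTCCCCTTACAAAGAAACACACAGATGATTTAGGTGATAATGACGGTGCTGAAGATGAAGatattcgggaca
Nlgn3 60-base exon: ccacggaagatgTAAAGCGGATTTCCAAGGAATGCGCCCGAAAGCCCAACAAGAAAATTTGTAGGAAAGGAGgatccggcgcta

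**Figure D2:**
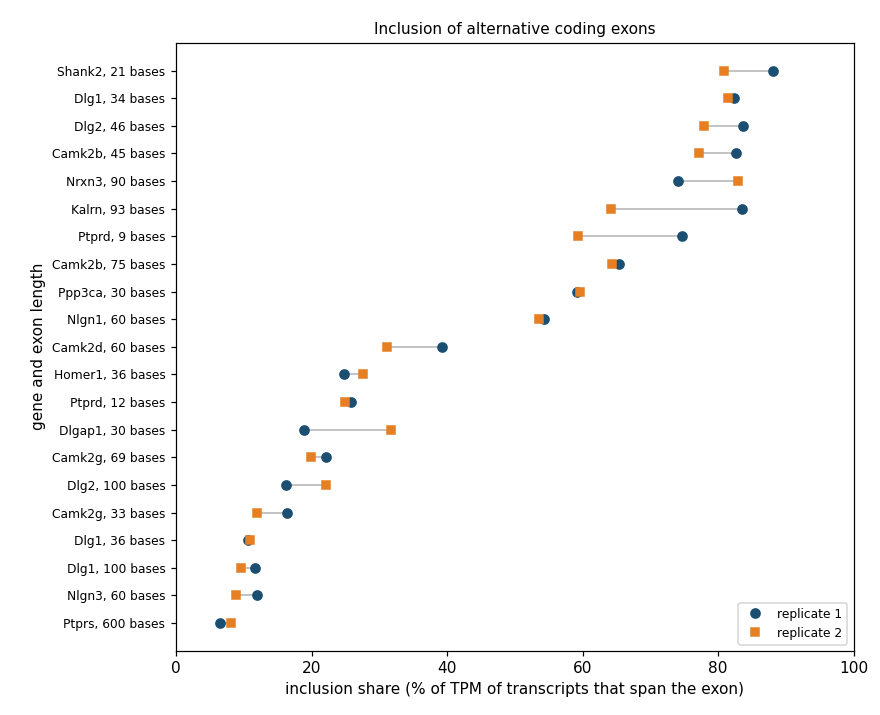
Inclusion of 21 alternative coding exons in 15 genes, as the percent of the TPM of all transcripts that span the exon, with a circle for replicate 1 and a square for replicate 2. Of the 21 exons, 15 had an SD between the libraries under 5 percentage points, and the 93-base exon of Kalrn had the largest at 13.6.

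Nlgn3 was the highest neuroligin, with 59.2 TPM in replicate 1 and 54.6 in replicate 2 and 55.8 ± 0.110% of the family. Nlgn1, found at excitatory synapses, had 28.0 and 27.2 TPM. Nlgn2, found at inhibitory synapses, was lowest with 19.0 and 15.8 TPM, and both steps were apart.

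The leucine-rich Lrrtm organizers were led by Lrrtm1 at 59.0 TPM in replicate 1 and 61.9 in replicate 2. Lrrtm2 was lowest at 11.46 and 11.99 TPM, and Lrrtm3 had 29.5 and 18.6 TPM. Only the step between Lrrtm4, at 19.1 ± 0.255 TPM, and Lrrtm2 was apart. On complete coding transcripts alone Lrrtm3 had 12.24 TPM in replicate 1 and 9.01 in replicate 2. That put Lrrtm3 above Lrrtm2 in replicate 1 and below it in replicate 2. Lrrtm1, Lrrtm2 and Lrrtm3 lie inside Ctnna2, Ctnna1 and Ctnna3 on the opposite strand. Ctnna2 had 124 TPM in replicate 1 and 111 in replicate 2, and Ctnna3 0.890 and 0.680 TPM, and how far reads of the host genes enter the Lrrtm counts was not tested.

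The 5 Slitrk genes, partners of the receptor phosphatases, spanned a narrow range. Slitrk1 was highest at 30.2 TPM in replicate 1 and 27.7 in replicate 2, and Slitrk4 had the lowest mean, with 11.4 and 10.9 TPM. Slitrk5 averaged 20.4 ± 0.566 TPM and Slitrk3 14.6 ± 1.41 TPM. Slitrk2 had 11.1 TPM in replicate 1 and 16.0 in replicate 2, so its place among the lower 3 changed with the library.

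Of the receptor phosphatases, which anchor presynaptic adhesion, Ptprs had 246 TPM in replicate 1 and 252 in replicate 2. Ptprd had 131 and 102 TPM and Ptprf (LAR) was lowest at 52.5 and 49.2 TPM, with all steps apart. The Ptprs message was almost a single form. Ptprs-202, with 4503 coding bases, held 93.5% in replicate 1 and 91.8% in replicate 2, and the longer form of 5721 coding bases, with a further extracellular exon of 600 bases, held 6.52% and 8.15%. Ptprd was spread over many forms, with 22.4% of its TPM on complete coding transcripts in replicate 1 and 27.7% in replicate 2. Counting these alone, Ptprs held 80.3 ± 0.178% of the family and Ptprd 9.30 ± 0.392%, below Ptprf at 10.4 ± 0.214%. The 9-base exon of Ptprd was included at 74.7% in replicate 1 and 59.4% in replicate 2.

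Calsyntenins are postsynaptic cadherin-like proteins that bind neurexins. Clstn3 had 76.0 TPM in replicate 1 and 53.4 in replicate 2, whereas Clstn1 had 54.3 and 69.3 TPM, so their order was reversed between the pools. Clstn2 was lowest at 17.6 and 20.8 TPM. Cerebellins are secreted and bridge neurexins to postsynaptic receptors. Cbln2 was highest at 29.8 TPM in replicate 1 and 24.9 in replicate 2, Cbln4 had 12.7 and 7.95 TPM, and Cbln1, best known from cerebellar granule cells, was lowest at 4.22 and 2.95 TPM. Both steps between cerebellins were apart.

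Levels summed over a gene hide how much of the RNA can encode its protein. Transcripts were sorted by their annotation into complete coding, incomplete coding, and noncoding or decay, which takes in processed transcripts, retained introns and targets of decay. Complete coding transcripts held a median of 89.6% of TPM over the 48 genes, against 95.7% over 13038 protein-coding genes. In 24 genes the share exceeded 90%, a level that the median of protein-coding genes also exceeded. In 11 genes (22.9%) it was under 50%, namely Shank3, Ptprd, Nrxn2, Dlg2, Nrxn3, Dlgap2, Dlg4, Dlg3, Iqsec2, Lrrtm3 and Dlg1, against 12.6% of protein-coding genes. All 4 PSD-95 family genes and both neurexins were in this group by their means, Dlg1 barely so with 49.4% in replicate 1 and 50.5% in replicate 2. In Nrxn3 retained introns alone held 52.0% in replicate 1 and 55.5% in replicate 2, and in Dlg2 they held 39.0% and 25.6%. Short noncoding entries have few counts behind their TPM. Nrxn2-213, of 576 bases, held 44.9% of Nrxn2 in replicate 1 and 47.7% in replicate 2 on 90.5 and 93.3 counts.

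**Figure D3:**
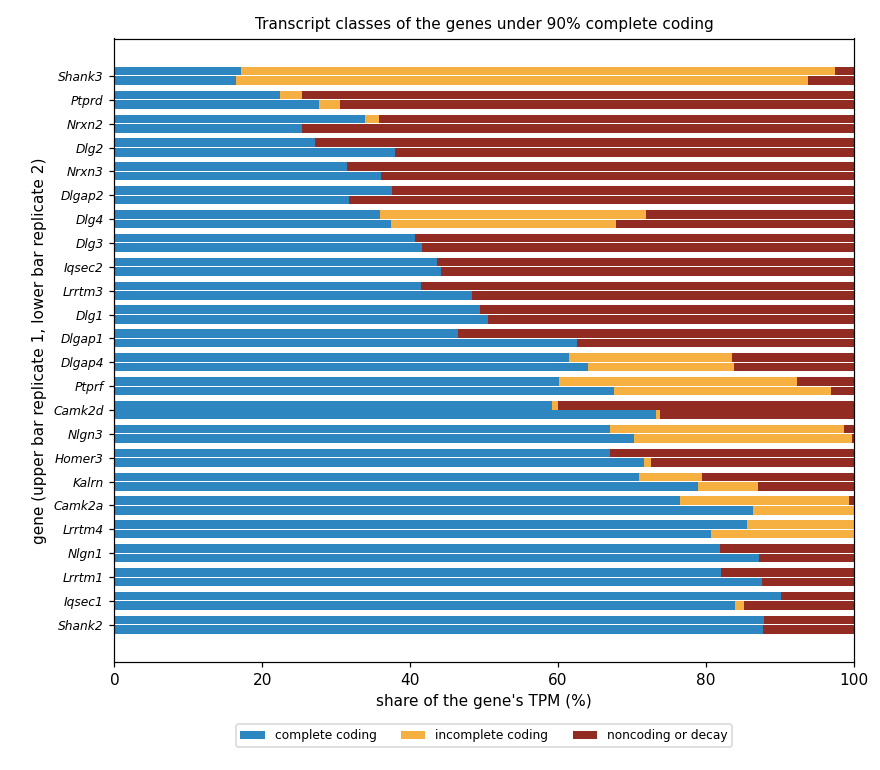
Percent of each gene's TPM on complete coding, incomplete coding and noncoding or decay transcripts, for the 24 genes under 90% complete coding, with replicate 1 as the upper and replicate 2 as the lower bar. Shank3 has the smallest complete coding share (16.8 ± 0.454%) and most of its TPM on an incomplete transcript, while Ptprd, Nrxn2, Dlg2 and Nrxn3 have most of theirs on noncoding ones.

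The leading transcript could be compared in 36 genes, those that had 2 or more listed transcripts and reached 10 TPM in each library. It was the same in both pools for 33 and differed for 3 (8.33%), against 7.19% of 6833 genes. In Dlgap2 it was coding Dlgap2-203 in replicate 1 (29.4%, against 26.6% in replicate 2) and noncoding Dlgap2-204 in replicate 2 (28.4%, against 27.4% in replicate 1). In Lrrtm3 it was the retained intron Lrrtm3-204 in replicate 1 (48.4%, against 44.5% in replicate 2) and coding Lrrtm3-201 in replicate 2 (48.4%, against 41.5% in replicate 1). The Homer3 change was larger. Homer3-201 held 37.4% in replicate 1 and 11.0% in replicate 2, Homer3-203 held 25.7% and 58.8%, and both have 1077 coding bases. In 4 genes a noncoding transcript led in both pools, namely Dlg2-207, Nrxn2-213, Nrxn3-204 and Ptprd-208. In a further 9 genes 1 coding transcript led both pools with under 50% of the gene. Neither count was set against all genes, so neither is read as a trait of the set. Among the kinase and scaffold genes, Camk2d-202 held 29.0% in replicate 1 and 44.7% in replicate 2, Dlg1-206 33.8% and 35.98%, Dlg4-201 31.4% and 32.9%, Dlgap1-211 20.6% and 32.6% and Dlgap4-204 42.9% and 47.6%. Kalrn-212 held 36.4% in replicate 1 and 34.2% in replicate 2. Among the organizers, the leading Nlgn1 form, which carries the 60-base exon, held 44.6% and 46.7%, Nlgn3-201 44.0% and 47.8% and Lrrtm4-206 40.1% and 40.3% in replicates 1 and 2.

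Between the pools the set was shifted towards replicate 1 by a small amount. That holds for counts scaled by the trimmed mean of M values (TMM), the scale of the log2 ratios unless another is named. None of the 48 genes differed by 2-fold or more, against 1.38% of the 13929 genes whose counts averaged 50 or more. The log2 ratio was above 0 in 37 of 48 genes (77.1%), against 48.0% of all genes. The median was 0.16 for the 48 genes, against -0.01 for all genes and -0.02 for 12881 protein-coding genes. The 95% counting interval lay above 0 for 28 genes and below 0 for 5. No share over all genes was taken for this count, and intervals are narrower at higher counts, so it is not read as a trait of the set. Such intervals cover counting error only, and with 1 library per pool the difference has no replicate check.

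The 5 genes (10.4%) at 1.5-fold or more higher in replicate 1, where 4.69% of all genes were, came from different families. Camk2a had a log2 ratio of 0.70 (interval 0.56 to 0.85) on 1135 counts in replicate 1 and 593 in replicate 2. Cbln4 had 667 and 351 counts and a log2 ratio of 0.69, and Nrgn had 548 and 300 counts and 0.63. Camk2a and Nrgn both belong to the calmodulin system of dendrites. The other CaMKII genes and Ppp3ca, also of that system, had log2 ratios from -0.08 to 0.23. Shank3 had 371 and 206 counts and a log2 ratio of 0.61, and Lrrtm3 had 1519 and 852 counts and 0.60. None was 1.5-fold or more higher in replicate 2, where 1.90% of all genes were. On complete coding transcripts alone 4 of the 5 stayed at 1.5-fold or more higher in replicate 1, against 3.51% of all genes compared. Lrrtm3 did not, with a log2 ratio of 0.46.

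Within families, the 3 Shank genes had log2 ratios from 0.42 to 0.61 and the 3 cerebellins from 0.28 to 0.69, all with counting intervals above 0, but only Shank3 and Cbln4 were past 1.5-fold. With libraries scaled to the spike-ins, Shank1, Shank2, Cbln1 and Cbln2 were below 0, at -0.13, -0.02, -0.05 and -0.27. The 4 PSD-95 family genes ranged from 0.07 to 0.53, with Dlg2 highest and an interval that includes 0 for Dlg1, and all 4 were below 0 with spike-in scaling. By contrast, the 3 Homer genes lay from -0.13 to -0.03 with intervals that include 0. Slitrk2 was lowest of the set with 1556 counts in replicate 1 and 1895 in replicate 2 (log2 ratio -0.52), followed by Clstn1 at -0.30 and Clstn2 at -0.22, whereas Clstn3 was at 0.49. The highest genes of the set differed little, with Dlgap4 at 0.15, Camk2b at 0.06 and Ptprs at -0.03. For Nrxn2 the measure matters, since its TPM, which is corrected for transcript length, was lower in replicate 1 while the log2 ratio of its counts was 0.21. On complete coding transcripts alone its TPM was higher in replicate 1, at 7.62 against 6.61 in replicate 2.

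**Figure D4:**
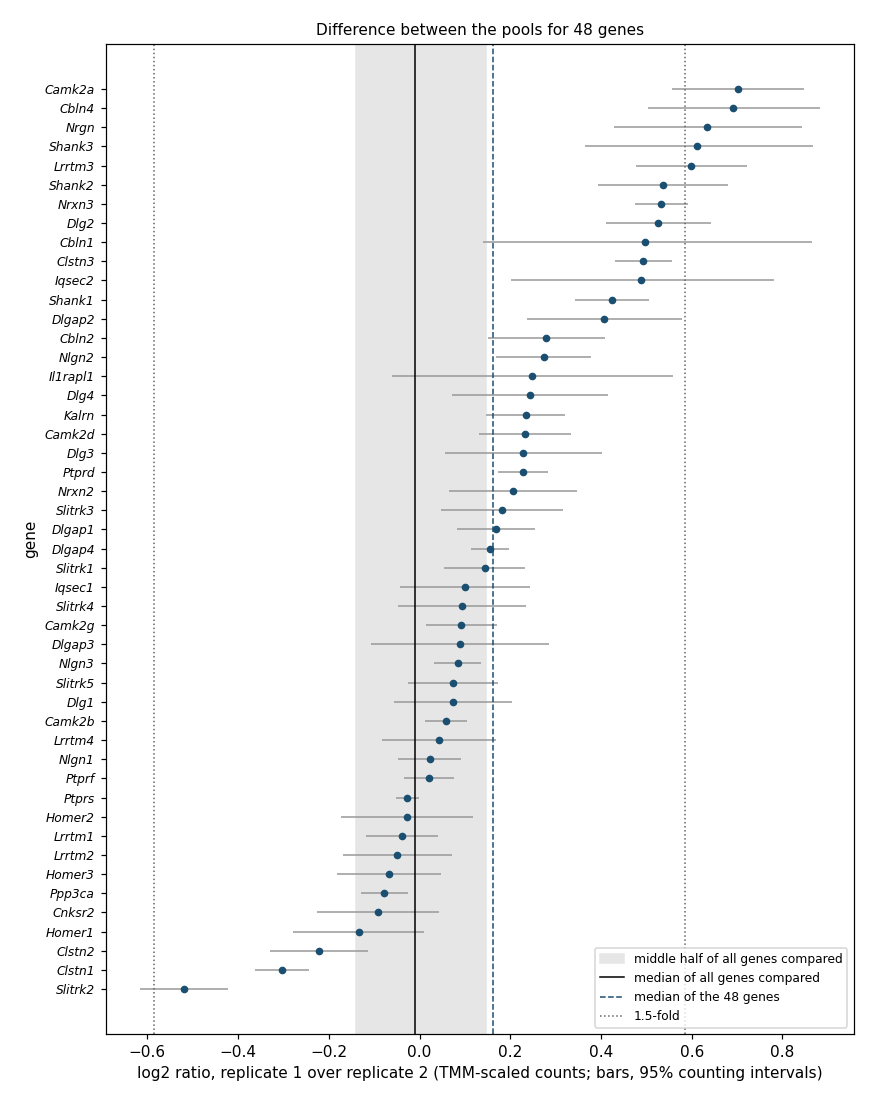
Log2 ratio of TMM-scaled counts, replicate 1 over replicate 2, for each of the 48 genes with its 95% counting interval. The dashed line is the median of the set (0.16), the solid line and grey band are the median and middle range of all genes compared, and 5 genes lie past the dotted 1.5-fold line on the right.

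Other genes of the tissue moved with this shift. Of 12 neuron markers 9 had a log2 ratio above 0, with a median of 0.26 and a summed level of 4745 TPM in replicate 1 and 4326 in replicate 2. Of 12 markers of dividing cells 1 was above 0 (median -0.26, 767 and 925 TPM in replicates 1 and 2), and of 11 radial glia markers none was (median -0.24). All 7 hypothalamus markers compared were higher in replicate 1 (53.0 and 16.9 TPM summed over 8 genes), as were 6 of 7 thalamus markers (154 and 133 TPM). All 7 markers of meningeal fibroblasts were lower in replicate 1 (206 and 472 TPM). Emx1 and Emx2, transcription factors of the developing cortex, had 47.9 and 10.9 TPM in replicate 1 and 50.6 and 11.7 TPM in replicate 2. The forebrain label was also checked against 8 cerebellum and hindbrain markers, none of which reached 1 TPM in both libraries and 2 of which were at 0 in both. En1 (1 and 13 counts in replicates 1 and 2), Pax5 (3 and 13), Atoh1 (0 and 8) and En2 (0 and 2) had more counts in replicate 2. Gbx1 had more in replicate 1 (67 and 20 counts, with 1.06 TPM in replicate 1), and Barhl1 had 25 and 24. The part of these differences in the shift of the set was not tested. Scaling to the spike-ins lowered every log2 ratio by 0.55, which put the median of the set at -0.39 with 5 of 48 genes above 0, against 5.31% of all genes. With that scaling 9 of the 48 were 1.5-fold or more higher in replicate 2, against 45.6% of all genes, none was so in replicate 1, against 0.625%, and 1 was past 2-fold, against 3.84%. The median of the set lay 0.17 above the median of all genes under both scalings. A change of scaling moves every ratio by the same amount, so this equality had to hold and is no check of the shift.

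The ratio also depended on the class of transcript. For 17 genes with at least 50 mean counts on both complete coding and noncoding transcripts, the median log2 ratio was 0.08 on complete coding and 0.52 on noncoding transcripts, and 15 of the 17 had the larger ratio on noncoding ones. Over 3844 such genes of all kinds the medians were -0.02 and 0.25, and 72.6% had the larger ratio on noncoding transcripts. Camk2b had 0.03 on complete coding and 0.96 on noncoding transcripts, Dlgap1 -0.11 and 0.76, and Dlg2 0.25 and 0.89. For Dlgap2 and Nrxn2 the order was the other way. The 10 genes of the set that span 500 kb or more had a median log2 ratio of 0.23, against 0.12 for the other 38 and 0.19 for 208 protein-coding genes of that span. Across the 48 genes, gene span and ratio had a Spearman rho of -0.01.

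**Figure D5:**
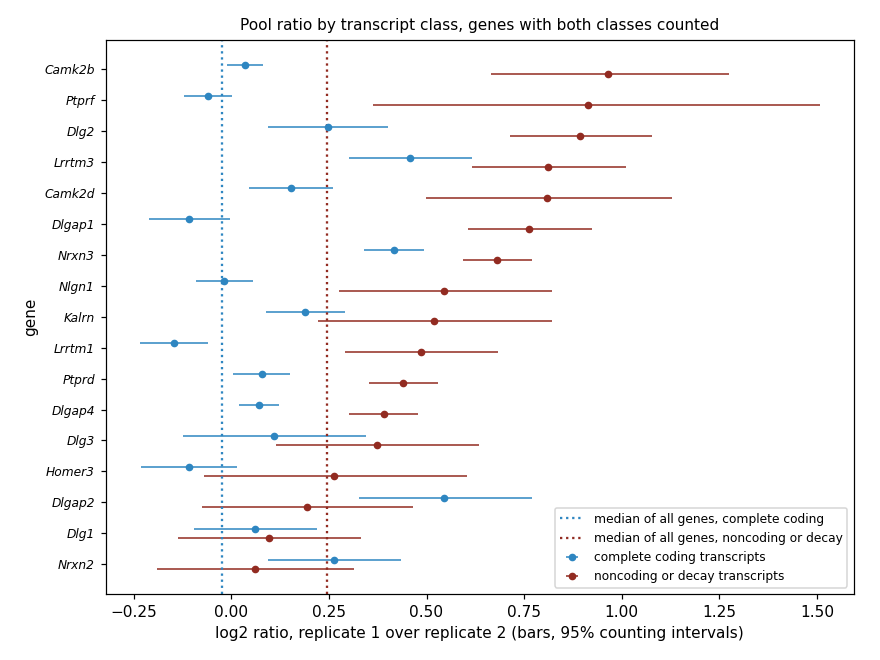
Log2 ratio, replicate 1 over replicate 2, on complete coding (blue) and noncoding or decay (red) transcripts of the 17 genes with both classes counted, with 95% counting intervals. Dotted lines mark the medians over 3844 genes (-0.02 and 0.25), and 15 of the 17 genes have the red point to the right of the blue one.

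Other genes of these pathways were also detected. Of 33 further components of the excitatory postsynapse, 32 were measured, 31 reached 1 TPM and 22 reached 10 TPM in both libraries. Dbn1 (drebrin), an actin-binding protein of growing spines, was highest with 658 TPM in replicate 1 and 692 in replicate 2, while the activity-induced Arc had 4.18 and 3.67 TPM. Of 31 compared, 20 had a ratio above 0 and only Lin7b, an adaptor of Cask, passed 1.5-fold, with 17.3 TPM in replicate 1 and 5.23 in replicate 2. All 17 calmodulin and calcineurin genes were measured, and 14 of 17 had a ratio above 0 with none past 1.5-fold. Of 43 other synaptic organizers, 38 reached 1 TPM in both libraries, and 30 of 38 compared had a ratio above 0, with a median of 0.21. The 5 past 1.5-fold, all higher in replicate 1, were Ntng1, Nptx2, Slitrk6, Lrtm2 and Igsf9b. Among all genes compared 48.0% had a ratio above 0 and 4.69% were 1.5-fold or more higher in replicate 1. The median log2 ratios of the postsynaptic and calmodulin lists were 0.19 and 0.17, close to the 0.16 of the 48 genes.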

How the data were processed

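Per the labels' protocols, extraction used a mirVana kit, and a SMARTer Ultra Low manual is listed for the libraries. Per the notes deposited with the samples, the assembly was mm10 and the annotation GENCODE M4. No aligner or quantifier is named in these sources. The authors deposited expected counts (estimated, not normalized) per gene and transcript, per the file headers. The deposited TPM values are scaled with spike-ins inside, which held 5.93% of TPM in replicate 1 and 4.10% in replicate 2. FPKM values and each transcript's percent of its gene were also deposited by the authors.

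Symbols, classes and coordinates came from GENCODE M21 (GRCm38, the same assembly as mm10) by identifier. It matched 42462 of 43346 genes, and 341 of 343 transcripts of the 48 genes, of which 294 had the same length. Complete coding transcripts have both ends of the coding region annotated. The exons were chosen after transcript levels were seen, among coding exons that another complete coding transcript skips. Exon inclusion is the TPM of transcripts with the exon over that of transcripts with exons on both sides, and the sequences were read from M21 transcripts. Counts were rounded for TMM factors (edgeR 4.0.16, R 4.3.3). Log2 ratios used a prior count of 0.5, a minimum mean of 50 counts and exact Clopper-Pearson intervals at 95%, and a gene passed a fold when its interval also excluded 0. Such reads are not independent molecules, so intervals cover counting error only. Neighbour gaps used a pseudocount of 0.1 TPM. The calls were checked on simulated data. Python 3.11.15, numpy 2.4.6, pandas 2.3.3, scipy 1.17.1 and matplotlib 3.10.9 were used.

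The genes, lists and tests were chosen with earlier results of these data known. Named genes are all members, with library values for the extremes of each family and members past 1.5-fold. Other scalings, minima, FPKM, posterior means and single libraries were tried, and complete coding transcripts alone were added after seeing the data. Values of some single genes in the wider lists are not reported here.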

Additional observations from a re-analysis of the deposited data

How the results depend on the processing

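Of 104 values recomputed under alternatives for 20 results, 89 stayed within the tolerance, 14 moved and 1 reversed. The tolerance was a factor of 1.5 for counts of genes, 1 SD between the libraries for family shares and the counting error of the summed counts for the median log2 ratio. Within it, the genes at 10 or more in both libraries numbered 28 with FPKM and 31 on complete coding transcripts, against 39 with TPM. Some of the 89 values could not have moved. For family shares a single library always lies within 1 SD of the mean of both libraries. FPKM keeps the proportions of TPM within a library, so it leaves the shares almost unchanged. A minimum of 20 counts, or none, left the same 48 genes compared. The 89 are therefore no measure of how stable the results are. Spike-in scaling reversed the median log2 ratio to -0.39, with 5 genes above 0, 1 past 2-fold (Slitrk2), 9 past 1.5-fold in favour of replicate 2 and 0 in favour of replicate 1, where all genes had a median of -0.56 and 45.6% and 0.625% past 1.5-fold in favour of replicates 2 and 1. The median was 0.185 with total counts, 0.149 with a minimum of 200 counts and 0.0972 on complete coding transcripts. Complete coding transcripts alone, an alternative chosen after seeing the data, moved the family shares of Shank1 to 71.8%, Homer3 to 60.3%, Dlgap4 to 86.4%, Nlgn3 to 49.0%, Lrrtm1 to 57.3% and Ptprs to 80.3%. The leading transcript was shared in 10 of 10 genes at 50 TPM or more. The causes were not tested. Depth limits the short noncoding transcripts and the lowest genes, such as Cbln1 with 173 counts in replicate 1 and 104 in replicate 2.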
